A study of Mus musculus with 4 samples.

Results

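The genes described here are 35 markers of the cell division cycle, listed by symbol and measured in livers of mice with and without Nrg4 (neuregulin 4, a secreted protein related to epidermal growth factor). A member was measured where a probe set of the array carried its symbol and no other, and a gene with several such probe sets was read from the brightest of them on average. That held for 33 of the 35, among 22180 genes measured in the same way. They were split by role into G1 cyclins and kinases with E2f1 (7 of 8 measured), replication genes (10 of 10) and genes of G2 and mitosis (16 of 17). Ccne2 (cyclin E2) shares its probe set with the neighbouring gene Ints8 and was left out, and Ccnb1 (cyclin B1) was not analysed here.

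Each of the 4 arrays held a pool of liver RNA from male mice, 2 pools from wild type animals (WT) and 2 from Nrg4 knockout animals (KO), and the labels call the pools of a genotype independent. Every animal, WT and KO alike, had eaten a diet that causes non-alcoholic steatohepatitis (NASH) for 20 weeks from the age of 3 months, and livers were taken without fasting, so there is no group on a normal diet. The kind of knockout allele, the strain and the number of animals in a pool are not stated in the labels. Values are the deposited log2 expression values of Affymetrix Mouse Gene ST 2.1 arrays, whose zero point is unknown, so a level is read between pools and not between genes. Genes with a mean under the median of all probe sets (0.54) are called dim here and were kept out of the main test. In bulk liver, fewer cells of a type and less RNA per cell cannot be told apart.

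Most hepatocytes of an adult liver rest outside the cycle. On re-entry, growth signals raise D-type cyclins, which activate Cdk4 and Cdk6, release E2F factors from the retinoblastoma proteins and start a wave of replication genes. A later wave, driven by the MuvB complex with B-Myb and FOXM1, brings up the genes of G2 and mitosis. Other cells of a NASH liver, such as macrophages, lymphocytes, bile duct cells and fibroblasts, can also divide, and bulk RNA does not separate them.

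Both waves have well-known promoter elements, and the sequences below show them in the members whose values are compared most closely. E2F factors bind sites such as TTTGGCGC or TTTCCCGC. MuvB binds the cell cycle genes homology region (CHR), TTTGAA, often near CCAAT boxes. RefSeq promoter windows (GRCm38.p6, 250 bases before to 50 after the start of a transcript) were matched to 27 of the 33 measured members by gene identifier, 30 windows in all. No window was matched to Ccnd1, Ccnd2, Mcm4, Ccna2, Foxm1 or Aurkb. Each sequence runs 5′ to 3′ on the strand of the gene from 150 bases before the start to the base before it, with E2F, CHR and CCAAT letters, read on either strand, in capitals. Mki67 (chr7:135716380-135716529, minus strand) and Ccnb2 (chr9:70421555-70421704, minus) had higher values in KO, Cdk1 (chr10:69352913-69353062, minus) is a gene of the same wave that did not, and Mcm6 (chr1:128359706-128359855, minus) had the lowest difference of the replication genes.
Mki67: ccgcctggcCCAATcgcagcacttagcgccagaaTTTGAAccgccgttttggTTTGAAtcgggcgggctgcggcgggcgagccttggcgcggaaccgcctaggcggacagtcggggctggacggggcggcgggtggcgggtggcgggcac
Ccnb2: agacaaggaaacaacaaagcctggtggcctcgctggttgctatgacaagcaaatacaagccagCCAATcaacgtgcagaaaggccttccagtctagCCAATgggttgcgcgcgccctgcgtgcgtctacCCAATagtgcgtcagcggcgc
Cdk1: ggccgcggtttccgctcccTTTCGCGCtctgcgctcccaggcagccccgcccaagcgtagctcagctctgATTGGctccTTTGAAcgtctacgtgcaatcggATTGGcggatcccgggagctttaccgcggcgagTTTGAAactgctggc
Mcm6: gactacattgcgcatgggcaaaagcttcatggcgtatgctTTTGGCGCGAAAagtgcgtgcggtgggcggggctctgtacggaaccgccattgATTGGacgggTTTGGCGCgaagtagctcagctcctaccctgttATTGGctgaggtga

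The letters were spread unevenly over the 3 groups. The CHR letters were found in 11 of 14 windows of mitosis genes, 1 of 10 of replication genes and 0 of 6 of the G1 group, against 17.9% of all 32851 promoter windows of the same length. An E2F site (TTTCCCGC, TTTGGCGC, TTTCGCGC or TTTGCCGC, on either strand) was in 4 of 10 windows of replication genes. Mitosis genes had one in 1 of 14 windows and the G1 group in 0 of 6, against 2.26% of all windows. The letters CCAAT, on either strand, were in 13 of 14 mitosis windows, 9 of 10 replication windows and 1 of 6 G1 windows, against 37.4% of all. A match is a run of letters and not a shown binding site. The CHR of Ccnb2 nearest to its start lies 5 to 10 bases after it, outside the stretch printed. In Mcm6, 2 of the 3 E2F matches overlap each other. The Mki67 and Cdk1 stretches hold 2 CHR each. Whether these letters bear on the differences between KO and WT was not tested.

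The labels were checked against the targeted gene and the tissue. Nrg4 was at 2.54 and 2.30 in the WT pools and 0.93 in both KO pools, a log2 difference of -1.49 ± 0.20 (SE, n = 2 pools each; limma, adjusted p = 0.181). Its KO level was thus lower in both pools, and the labels do not say where in the gene the probes and the mutation are. The 10 hepatocyte markers examined (Alb and others) averaged 8.64 to 8.73 in WT and 8.44 to 8.53 in KO. Of 12458 tested genes, limma called 6 at an adjusted p under 0.05, or 0.0482%, and none of the 31 tested members was among them. By the same test 3 members had an unadjusted p under 0.05, all higher in KO (Ccnb2, Mki67 and Ccnd1), where 6.37% of tested genes were higher and 3.92% lower at that level (794 and 488 genes, or 608 and 516 with arrays centred on their medians). The smallest adjusted p of a member was 0.297 (Ccnb2). Without KO pool 1 the members at that unadjusted level were Ccnb2 alone, without KO pool 2 Ccnb2 (higher) and Mcm3 (lower), without WT pool 1 Ccnb2 and Ccnd1, and without WT pool 2 Ccnb2, Ccnd2 and Mki67. With a variance that follows intensity they were 5, Ccnd2 and Cdk6 added. With 1 pool left out, the difference moved by over 1.5 times or changed sign in 30 of the 33 measured members, all but Ccnb2, Plk1 and Cenpe. The labels do not say how animals were pooled, so p-values measure the spread between pools alone.

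In all, 17 of the 31 tested members had a higher mean in KO and 14 a lower one, beside 51.6% and 48.4% of all tested genes. The pools did not overlap in 12 members that were higher in KO and 3 that were lower, where 22.2% and 19.5% of all tested genes were placed so. For 8 members, all higher in KO, the difference between genotypes was larger than the gap between the pools of either genotype: Ccnd1, Cdk6, Rrm2, Ccnb2, Mki67, Top2a, Plk1 and Cenpe. Of all tested genes 15.7% were above that mark upward and 13.5% downward. The median difference was 0.17 in the G1 group, -0.11 in the replication group and 0.16 in the mitosis group, against 0.01 over all tested genes. With the dim Ccne1 counted, the G1 median was -0.11, and with quantile normalization 14 members were higher and 17 lower. The plot of levels by pool shows how the 3 groups sit on the scale.

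**Figure D1:**
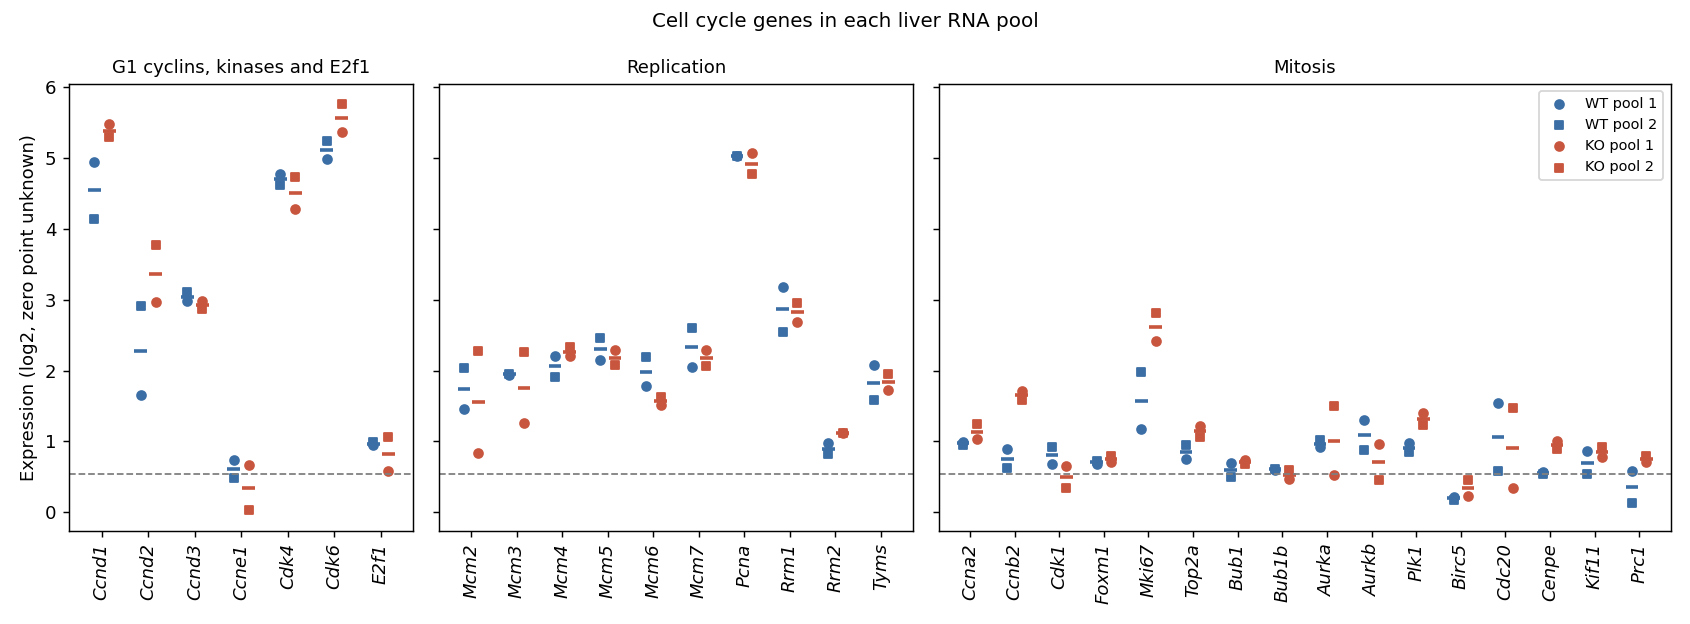
Log2 expression of each of the 33 measured members (vertical axis) in the WT pools (blue) and the KO pools (red), with pool 1 as a circle, pool 2 as a square and a short bar at the mean of each genotype. The dashed line, at 0.54, is the median of all probe sets. Of 16 mitosis genes 1, Mki67, has a mean more than 1 above that line.

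Among the G1 genes, the D cyclins did not share a direction. Ccnd1 (cyclin D1), the D cyclin that hepatocytes induce when they enter the cycle, was at 4.95 and 4.15 in WT and at 5.48 and 5.29 in KO. Both KO pools lay above both WT pools, by 0.35 at the closest, while the WT pools themselves lay 0.80 apart. The log2 difference was 0.84 ± 0.31 (SE, n = 2 each), or 1.79-fold, with an unadjusted p of 0.0356 and an adjusted p of 0.445 by limma. Without WT pool 2 it was 0.44, the smallest value with any pool left out.

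Ccnd2 (cyclin D2) had the widest difference of the members and also a wide spread. It was at 1.65 and 2.91 in WT and at 2.97 and 3.77 in KO. WT pool 2 lay 0.06 below KO pool 1, so the groups were barely apart. The difference was 1.09 ± 0.48 (SE; limma, adjusted p = 0.524), smaller than the gap of 1.25 between the WT pools, and ran from 0.46 to 1.71 with 1 pool left out.

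Ccnd3 (cyclin D3), which is widely expressed in lymphocytes and other cells, was at 2.98 and 3.11 in WT and 2.99 and 2.87 in KO, and its pools overlapped. Its difference was -0.11 ± 0.19 (SE). The kinases that D cyclins bind were likewise unequal. Cdk6 was at 4.99 and 5.24 in WT and 5.37 and 5.76 in KO, with both KO pools on top and a difference of 0.45 ± 0.23 (SE; limma, adjusted p = 0.587). Cdk4 was at 4.78 and 4.63 in WT and 4.28 and 4.73 in KO, so KO pool 1 was the low one and KO pool 2 lay between the WT pools. E2f1, the activator E2F, was at 0.95 and 0.99 in WT and 0.58 and 1.06 in KO, and these overlap. Ccne1 (cyclin E1), the cyclin of the G1 to S transition, was dim, at 0.74 and 0.49 in WT and 0.66 and 0.03 in KO.

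Of 10 replication genes 3 had a higher mean in KO and 7 a lower one. The MCM2 to MCM7 proteins form the helicase that unwinds DNA at the origin, and 5 of their 6 genes had a lower mean in KO. Mcm6 was at 1.78 and 2.20 in WT and 1.52 and 1.63 in KO, the 1 replication gene with both KO pools below both WT pools, at -0.41 ± 0.23 (SE; limma, adjusted p = 0.608). That difference was -0.20 without WT pool 2 and -0.62 without WT pool 1. Its promoter is the Mcm6 sequence printed above, with E2F letters in 2 places. Mcm4 was at 2.21 and 1.91 in WT and 2.21 and 2.33 in KO, and its genotypes were 0.00055 apart. The 4 others, Mcm2, Mcm3, Mcm5 and Mcm7, had differences between -0.19 and -0.12 with overlapping pools.

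Pcna, the sliding clamp of DNA polymerase, was even across the pools, at 5.03 in both WT pools and 5.07 and 4.77 in KO. Among genes of nucleotide supply, Rrm1 and Tyms had wider gaps between the WT pools. Rrm1 and Rrm2 encode the subunits of ribonucleotide reductase, and Tyms makes thymidylate. Rrm1 was at 3.18 and 2.55 in WT and 2.69 and 2.95 in KO. Tyms was at 2.08 and 1.58 in WT and 1.72 and 1.95 in KO. In both genes the KO pools lay between the WT pools. Rrm2 was at 0.98 and 0.82 in WT and 1.12 in both KO pools, a difference of 0.22 ± 0.19 (SE). A dimmer probe set of Rrm2 gave -0.70, so the probe sets of this gene disagree in direction.

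Mitosis genes sat close to the median of all probe sets, and 11 of the 15 tested had a higher mean in KO. Mki67 encodes Ki-67, a coat protein of mitotic chromosomes that pathologists stain to count cycling cells. It was at 1.17 and 1.97 in WT and 2.42 and 2.81 in KO. The KO pools were the highest of the 4 arrays, and the WT pools lay 0.80 apart. The difference was 1.04 ± 0.32 (SE, n = 2 each), with an unadjusted p of 0.0196 and an adjusted p of 0.394 by limma. Without WT pool 1 it was 0.64 and without WT pool 2 it was 1.45.

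Ccnb2 (cyclin B2), a partner of Cdk1 at the entry into mitosis, had the smallest p of the members. It was at 0.89 and 0.63 in WT and 1.71 and 1.59 in KO. The WT pools lay 0.26 apart, the KO pools 0.13 apart, and the closest pools of the 2 genotypes 0.70 apart. The difference was 0.89 ± 0.20 (SE; unadjusted p = 0.00548 and adjusted p = 0.297 by limma). Its WT mean exceeded the all-probe-set median by 0.22, so no fold is given.

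Cdk1, the kinase that cyclin B2 activates, was placed the other way. It was at 0.68 and 0.92 in WT and 0.66 and 0.34 in KO, with a difference of -0.30 ± 0.22 (SE). Both KO values lay below both WT values, and the KO mean lay 0.04 below the median of all probe sets. Foxm1, the transcription factor of the mitotic wave, was at 0.68 and 0.72 in WT and 0.71 and 0.80 in KO. Ccna2 (cyclin A2), which acts in S phase and G2, was at 1.00 and 0.95 in WT and 1.04 and 1.24 in KO, a difference of 0.17 ± 0.20 (SE).

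Another 4 mitosis genes had both KO pools above both WT pools, with smaller differences. Plk1, a kinase of mitotic entry and spindle assembly, was at 0.98 and 0.85 in WT and 1.40 and 1.23 in KO (0.40 ± 0.20 SE). Cenpe, the kinesin that moves chromosomes to the spindle equator, was at 0.57 and 0.55 in WT and 1.01 and 0.89 in KO (0.40 ± 0.19 SE). In both, the KO pools lay clear of the WT pools. Prc1, which bundles microtubules of the central spindle, was at 0.59 and 0.13 in WT and 0.71 and 0.80 in KO (0.39 ± 0.23 SE). Its WT mean, 0.36, lay below the median of all probe sets. Top2a, the topoisomerase that untangles chromosomes, was at 0.76 and 0.95 in WT and 1.21 and 1.07 in KO (0.29 ± 0.20 SE). None of these 4 passed the test, with adjusted p of 0.563 to 0.686 by limma.

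The remaining mitosis genes lay close together or overlapped. Kif11 (the spindle kinesin Eg5) and Bub1 (a checkpoint kinase) differed by 0.16 and 0.11 with overlapping pools. Bub1b, the checkpoint protein BubR1, differed by -0.08, and its genotypes were 0.0011 apart. Aurkb, the kinase of the chromosomal passenger complex, was at 1.30 and 0.88 in WT and 0.96 and 0.46 in KO, an overlapping pair of groups with a difference of -0.38 ± 0.27 (SE). Birc5 (survivin), a partner of Aurkb in that complex, was dim, at 0.21 and 0.18 in WT and 0.23 and 0.45 in KO. The plot of differences sets all members side by side.

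**Figure D2:**
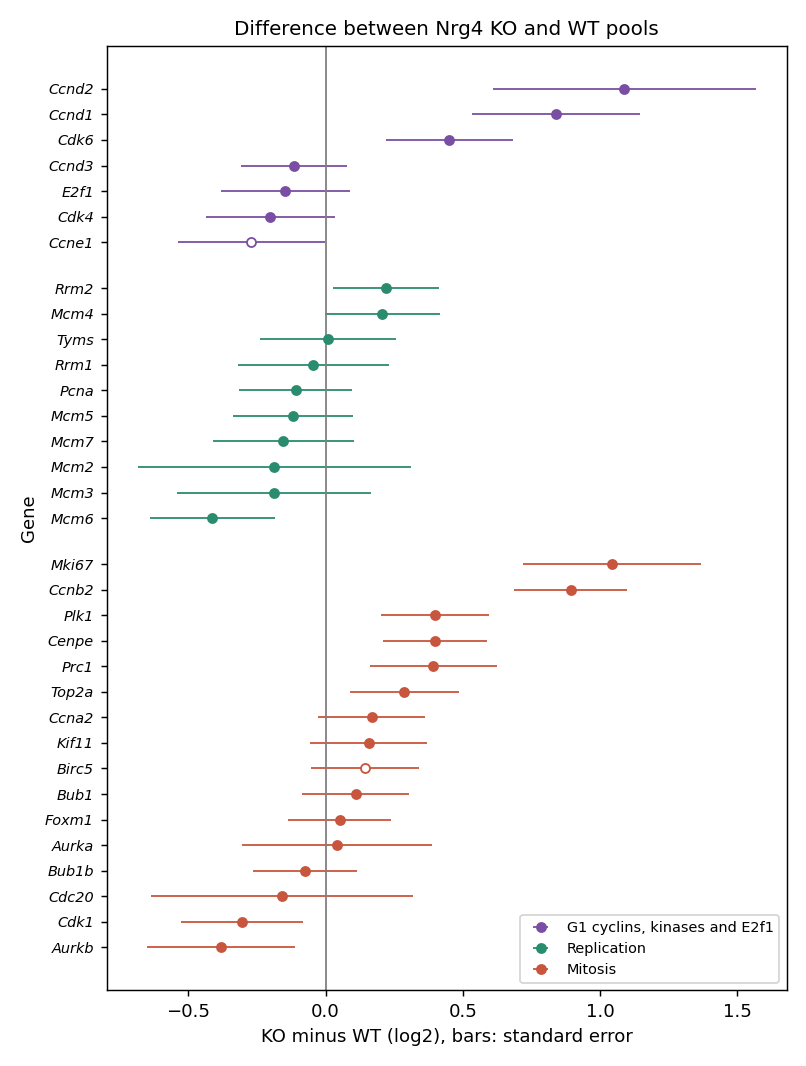
KO minus WT log2 difference of each measured member (horizontal axis) with its standard error from limma, by group, open circles marking the dim genes Ccne1 and Birc5. The points of Ccnd2, Mki67, Ccnb2 and Ccnd1 lie between 0.84 and 1.09 and those of replication genes between -0.41 and 0.22.

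In 23 of 31 tested members (74.2%) the larger of the pool gaps exceeded the difference between genotypes, beside 70.8% of all tested genes. KO pool 1 was the lower KO pool in 19 of 31 tested members (61.3%), near the 57.6% of all tested genes. Mcm2 was at 1.45 and 2.03 in WT, 0.84 in KO pool 1 and 2.28 in KO pool 2. Mcm3 was at 1.94 and 1.95 in WT, 1.25 in KO pool 1 and 2.26 in KO pool 2. Aurka, the spindle pole kinase, was at 0.92 and 1.02 in WT, 0.52 in KO pool 1 and 1.50 in KO pool 2. In these 3 genes the WT pools lay between the KO pools, so the mean of KO hides a low and a high pool.

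Cdc20, the activator of the anaphase-promoting complex, was spread in both genotypes, at 1.55 and 0.59 in WT and 0.35 and 1.47 in KO. Gaps over 1 between the KO pools occurred in 3 of 31 tested members (Mcm2, Mcm3 and Cdc20), and in 4.30% of all tested genes. Over all tested members the median gap was 0.24 between WT pools and 0.22 between KO pools, near the 0.23 and 0.26 of all tested genes. Without KO pool 1 the replication median turned from -0.11 to 0.11, the mitosis median went from 0.16 to 0.27, and 23 members were higher and 8 lower.

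**Figure D3:**
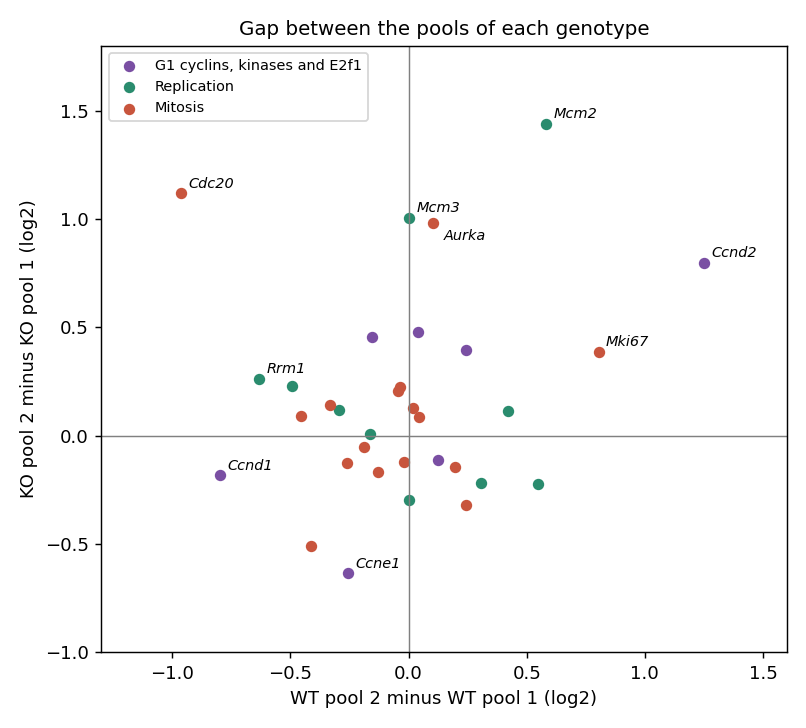
Gap between the WT pools (horizontal axis, pool 2 minus pool 1, log2) against the gap between the KO pools (vertical axis, same scale) for each measured member, coloured by group. Mcm2, Cdc20 and Mcm3 lie more than 1 above the horizontal line, and Ccnd2 more than 1 to the right of the vertical one.

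Further genes were taken from 6 lists, 115 of whose 146 genes were tested, and none passed the adjusted threshold. The list of other cyclins and CDKs includes family members that act in transcription, such as Ccnt1, Cdk9 and Cdk19, so not all 115 are cell cycle genes. Of the 115, 54 had a higher mean in KO and 61 a lower one, beside 51.6% and 48.4% of all tested genes. The median difference was -0.01. At an unadjusted p under 0.05 by limma 6 were higher and 5 lower, beside 6.37% and 3.92% of all tested genes. The 2 widest differences were in replication genes. Mcm10, a replication factor that acts with the replicative helicase, was at 3.56 and 2.99 in WT and 1.41 and 1.83 in KO. Both KO pools lay more than 1 below both WT pools, a difference of -1.65 ± 0.28 (SE; limma, adjusted p = 0.233). Tk1, the thymidine kinase of dividing cells, was at 4.54 and 4.47 in WT and 2.48 and 3.36 in KO, a difference of -1.58 ± 0.32 (SE; limma, adjusted p = 0.269, or 0.0456 with a variance that follows intensity). The lowest difference of a member in the replication group was -0.41.

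Genes that act at replication origins did not share a direction. Cdt1, which loads the MCM helicase on origins, was at 1.20 and 1.82 in WT and 0.84 and 0.38 in KO (-0.89 ± 0.30 SE). Orc5, an origin recognition subunit, was at 4.10 and 3.91 in WT and 3.26 and 3.43 in KO (-0.66 ± 0.20 SE). Neither passed after adjustment (limma, adjusted p = 0.415 and 0.383). Orc6, another subunit of the same complex, named after its values were seen, was at 2.14 and 2.07 in WT and 2.52 and 2.87 in KO (0.59 ± 0.21 SE; limma, adjusted p = 0.440). Of the 34 tested replication genes of that list, 14 had a higher mean and 20 a lower one, with a median of -0.08.

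Inhibitors and E2F factors also differed in single genes. Cdkn1a (p21), a CDK inhibitor that p53 induces, was at 4.32 and 3.81 in WT and 4.85 and 5.01 in KO, and both KO pools lay above (0.87 ± 0.24 SE; limma, adjusted p = 0.364). Rbl1 (p107), a retinoblastoma relative, was at 1.33 and 1.92 in WT and 2.14 and 2.72 in KO (0.80 ± 0.31 SE). Cdkn2b (p15) differed by 0.51 ± 0.28 and Rb1 by -0.38 ± 0.31, the last turning to 0.03 without KO pool 1. E2f8, an atypical repressor E2F of polyploid hepatocytes, was at 2.76 and 2.45 in WT and 1.83 and 1.30 in KO (-1.04 ± 0.26 SE; limma, adjusted p = 0.320). E2f4, the repressor that sits with p107 and p130 in resting cells, was at 3.34 and 3.36 in WT and 3.91 and 3.96 in KO (0.59 ± 0.19 SE). The E2F partners Tfdp1 and Tfdp2 differed by 0.46 ± 0.29 and -0.40 ± 0.30 with overlapping pools. Of 9 tested inhibitors and pocket proteins 6 were higher, and of 12 tested E2F and DREAM factors 5 were higher.

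Other mitosis genes gave no common direction, with 16 of 29 tested genes higher and 13 lower in KO and 15 further genes dim. Kif23, a motor of the central spindle, was at 0.49 and 0.67 in WT and 1.13 and 1.07 in KO (0.52 ± 0.19 SE). Spc24, a kinetochore subunit, was at 3.76 and 4.22 in WT and 2.58 and 3.57 in KO (-0.91 ± 0.37 SE), or -0.42 without KO pool 1 and -1.41 without KO pool 2. Ncapd2, a condensin subunit, differed by -0.59 ± 0.24 and Bub3, a checkpoint protein, by 0.41 ± 0.19. Among other cyclins and CDKs 8 of 23 were higher, with Cdk19 at 0.63 ± 0.25, Ccnt1 at 0.47 ± 0.22, Cdk20 at 0.40 ± 0.24 and Cdk2, the S phase kinase, at -0.44 ± 0.23. Of 8 tested early growth-response genes 5 were higher, with Ier3 at 0.50 ± 0.25, Fos at -0.44 ± 0.23, Ier2 at -0.50 ± 0.26 and Egr1 at -0.57 ± 0.31. Ier2 was at -0.19 without WT pool 2, and Egr1 at -0.15 without KO pool 1. Over the 24 named genes of these 6 lists, the difference moved by over 1.5 times or changed sign in 15 with 1 pool left out, but not in Mcm10, Tk1, Orc5, Cdkn1a, E2f4, E2f8, Kif23, Ncapd2 or Bub3.

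**Figure D4:**
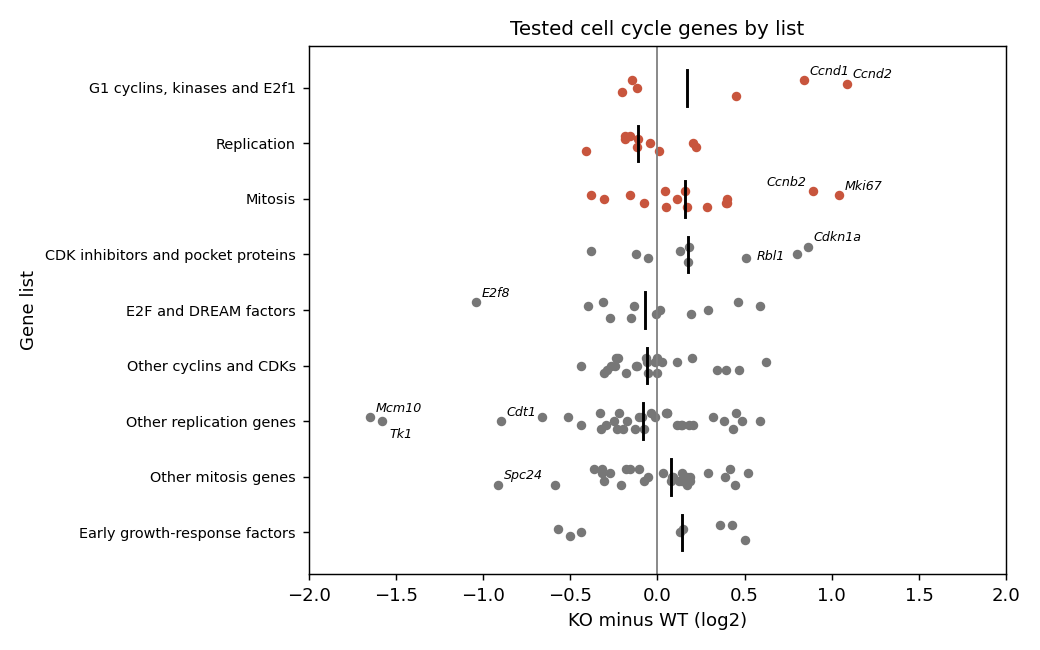
KO minus WT log2 difference (horizontal axis) of each tested gene by list, members in red and genes of the further lists in grey. A black bar marks the median of each list, and names stand beside the widest differences. Mcm10 and Tk1 lie at -1.65 and -1.58 in a list whose median is -0.08.

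Many markers of other cell types that can divide in a NASH liver also had a higher mean in KO. Macrophage markers (Adgre1, Trem2 and others) had a higher mean in KO in 10 of 10 genes. Their list mean was 3.52 to 3.61 in WT and 4.22 to 4.24 in KO. Both KO pools lay above both WT pools in 8 of the 10, a placement found in 22.2% of all tested genes. Pools overlapped in Adgre1 (0.14) and Clec4f (0.33). Stellate cell and fibroblast markers were higher in 8 of 10, at 3.60 to 3.72 in WT and 4.37 to 4.42 in KO. Both KO pools lay above both WT pools in 6 of them, Pdgfra, Pdgfrb, Col1a1, Col3a1, Dpt and Lum. Pools overlapped in the other 4, with log2 differences of 0.008 (Acta2), 0.11 (Lrat), -0.09 (Des) and -0.11 (Reln). Cholangiocyte markers were higher in 6 of 7, at 1.41 to 1.78 in WT and 2.19 to 2.47 in KO. Both KO pools lay above both WT pools in 4 of the 7, with the widest log2 differences in Cdh1 (1.62) and Cd24a (1.31). The others of these 4 were Epcam (0.71) and Krt7 (0.40). Pools overlapped in Krt19 (-0.06), Sox9 (0.86) and the dim Cftr (0.30). The means of these 3 lists were thus higher in both KO pools than in both WT pools, as were Mki67, Ccnb2 and Ccnd1. The list means of T and NK cells and of B and plasma cells, given below, were placed the same way. Cd3g and Jchain had the widest differences in them, and other markers of both lists were lower. These means thus do not show either cell type as a whole to be higher. The part of any of these cell types in the Mki67, Ccnb2 and Ccnd1 values was not tested.

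Many markers of other blood cells were dim. Of 9 T and NK cell markers 5 were higher and 4 lower, with Cd3d, Cd2 and Gzmb dim. Their list mean was 0.64 to 0.86 in WT and 0.88 to 0.96 in KO. Cd3g had the widest log2 difference (1.07), and Cd3e (-0.42) and Cd4 (-0.40) were the lowest. Of 7 B and plasma cell markers 4 were higher and 3 lower, with Ms4a1, Mzb1, Pax5 and Tnfrsf17 dim. Their list mean was 0.55 to 0.59 in WT and 0.66 to 0.87 in KO. Jchain had the widest log2 difference (1.19), and Tnfrsf17 (-0.32) was the lowest. Neutrophil markers averaged 0.33 to 0.44 in WT and 0.28 to 0.38 in KO, and 7 of 8, Ly6g and S100a8 among them, were dim. Of 3 measured erythroid markers 2 were dim. Endothelial markers were higher in 5 of 8, and their list means overlapped (4.22 to 4.35 in WT, 4.25 to 4.46 in KO). Both KO pools lay above both WT pools in 3 of these 8 and below in 1. Hepatocyte markers were lower in 8 of 10, and their list means were lower in both KO pools (8.44 to 8.53) than in both WT pools (8.64 to 8.73). Both KO pools lay below both WT pools in 6 of the 10 and above in 1. Over all tested genes 19.5% were placed below and 22.2% above.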

How the data were processed

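The deposited values are log2 expression values of 41345 probe sets on 4 arrays. The submitters' processing notes name oligo, RMA (background correction, scaling between arrays and 1 value per probe set) and limma, with no version or genome build. Biotin labelling started from 400 ng of RNA, per the labels' protocols. Array medians lay between 0.52 and 0.64. The number of arrays limits the precision.

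The platform annotation paired 23521 probe sets with 1 symbol. Genes with a mean at or above 0.54 (12458) were fitted with limma 3.58.1 in R 4.3.3 (lmFit, eBayes, no covariate, Benjamini-Hochberg over all tested genes), after a test on simulated data. Dim members were read from a fit of all 22180 genes. An exact permutation of 2 pools against 2 cannot go below p = 0.333. Promoter sequences and coordinates come from RefSeq (GRCm38.p6), not from the array.

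Text was written on Nrg4, all members, and the 4 tested genes with the smallest p in each further list. Members and lists were chosen with earlier results of these data known. Alternatives were 2 other scalings, 2 filters, the mean of probe sets, 2 variance models, the pool number as a block, and each pool left out.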

Additional observations from a re-analysis of the deposited data

How the results depend on the processing

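No member was called by limma under any of the 12 alternatives run. Over all tested genes the count of 6 called became 136 with a variance that follows intensity, 2 with the pool number as a replicate block and 0 without any 1 pool, and lay at 6 or 7 in the others. The pool numbers are not stated to pair the pools, and pool 1 deviations of WT and KO correlated at -0.037 across genes. A stricter filter on dim genes (mean at least 1 above the median of all probe sets) left 15 members, 6 higher and 9 lower, with Mki67 as the 1 mitosis gene and so a mitosis median of 1.04. With 1 pool left out, 8 to 15 members were lower, the G1 median lay between 0.098 and 0.37 (0.45 under the stricter filter, against 0.17), the replication median between -0.15 and 0.11 and the mitosis median between 0.087 and 0.27. Of 33 members 18 kept their sign under every alternative.

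Signs turned for Tyms (-0.038) and Aurka (-0.0054) with arrays centred on their medians, for Tyms (-0.074), Foxm1 (-0.0050) and Aurka (-0.042) with quantile normalization, and for Rrm2 (-0.24) as the mean of its probe sets. With 1 pool left out, the range took in 0 for Aurka (-0.45 to 0.53), Ccne1 (-0.59 to 0.048), Cdc20 (-0.72 to 0.40), Cdk4 (-0.43 to 0.027), E2f1 (-0.39 to 0.093) and Kif11 (-0.0094 to 0.32). The same held for Mcm2 (-0.91 to 0.53), Mcm3 (-0.69 to 0.31), Mcm5 (-0.27 to 0.035), Mcm7 (-0.43 to 0.12), Pcna (-0.26 to 0.040), Rb1 (-0.79 to 0.028), Rrm1 (-0.36 to 0.27) and Tyms (-0.24 to 0.25). Where a cause is not given here, the cause was not tested.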

Other observations

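The annotation holds 6 probe sets that name a member together with another gene, and these were left out of the comparison. The probe set shared by Ccne2 and Ints8 was at 1.26 and 1.23 in WT and at 1.05 and 1.14 in KO. Of a pair shared by Top2a and Taf1d, one was at 3.82 and 4.40 in WT and 4.49 and 4.66 in KO, and the other at 4.90 and 5.49 in WT and 5.35 and 5.56 in KO. Which of the named genes such a probe set measures was not tested. The probe set shared by Mir25 and Mcm7, a microRNA inside the Mcm7 gene, was at -0.12 and -0.0070 in WT and 0.47 and 0.25 in KO.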
